A study of Drosophila melanogaster with 3 samples.

Results

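The genes described are the chemoreceptor genes of Drosophila melanogaster, taken as the protein-coding genes whose Ensembl symbol begins with Or, Gr or Ir followed by a number and a letter, with Orco added. This rule reads gene symbols alone and gave 180 of the 13945 protein-coding genes on the main chromosome arms, namely 60 odorant receptor genes (Or), 60 gustatory receptor genes (Gr) and 60 ionotropic receptor genes (Ir). Binding of BEAF-32, a DNA-binding protein found at chromatin boundaries and beside gene starts, was measured by chromatin immunoprecipitation and sequencing. The 3 libraries are labelled biological replicates of 1 group, whole embryos of 0 to 14 hours with the sexes pooled, from a transgenic line that stably carries BEAF-32 with GFP at its C terminus. An antibody against GFP was used, no treatment is labelled, and the labels do not say whether the untagged protein was also present. The tissue is the whole embryo, so cells that use a given receptor cannot be told apart from all the others.

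Chemoreceptors are the membrane proteins with which sensory neurons detect smells and tastes. Or proteins form odour-gated channels in olfactory neurons together with the shared subunit Orco. Gr proteins serve mainly in taste neurons, where they detect sugars and bitter compounds, and a Gr pair detects carbon dioxide. Ir proteins derive from ionotropic glutamate receptors and work with the broadly used subunits Ir25a, Ir8a and Ir76b. A sensory neuron typically expresses very few of these genes, most of which are known for their use in larval and adult sense organs.

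A gene counted as bound when it had a peak summit at most 500 bp from an annotated start. The summits were the 6070 of the authors' list that passed the irreproducible discovery rate (IDR) threshold, which rests on the agreement of peaks between replicates. By signal they were the strongest part of the list from the pooled replicates, so a single summit need not recur in each replicate. Chemoreceptor genes were bound at 7 of 180, and these were Ir76a, Gr61a, Ir31a, Gr63a, Ir60e, Ir60b and Gr97a. At each of the 7 a gene that is no receptor started in the opposite direction on the other side of the summit. The bases around the summit, cut off at both gene starts and at 100 bp from the strongest summit, are printed for 5 of the 7, because they are the stretches that a receptor and its neighbour share. They are given on the forward strand of dm6, 5′ to 3′, from the RefSeq copy of the same assembly, with CGATA, the string BEAF-32 is described to recognise, in capitals wherever it stands on either strand (TATCG on the forward strand is CGATA on the other).
Ir76a with CG14102, chr3L:19801292-19801329: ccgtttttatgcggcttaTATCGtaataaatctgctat
Gr61a with JMJD5, chr3L:841361-841450: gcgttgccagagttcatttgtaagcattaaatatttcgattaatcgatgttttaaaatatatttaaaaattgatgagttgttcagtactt
Ir31a with LSm-4, chr2L:10405204-10405318: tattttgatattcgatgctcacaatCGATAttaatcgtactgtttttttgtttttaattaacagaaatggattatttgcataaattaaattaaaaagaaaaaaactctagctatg
Gr63a with Lamtor4, chr3L:3896748-3896899: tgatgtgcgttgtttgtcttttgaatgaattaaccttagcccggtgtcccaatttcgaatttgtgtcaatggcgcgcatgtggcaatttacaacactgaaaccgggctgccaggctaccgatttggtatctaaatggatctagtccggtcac
Gr97a with CG5521, chr3R:26966829-26966929: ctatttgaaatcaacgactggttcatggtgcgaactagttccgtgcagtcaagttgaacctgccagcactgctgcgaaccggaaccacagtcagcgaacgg

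The stretches at Ir76a and Ir31a each held 1 copy of the string, and those at Gr61a, Gr63a and Gr97a held none. Bases beyond the 2 gene starts, which were not printed, added further copies. Within 100 bp of the summit there were 4 copies at Ir76a, 2 of them being the strands of 1 TATCGATA, and 2 at the stronger summit beside Ir31a. The 200 bases upstream of 3 unbound receptor genes are printed as well, chosen on X, 2L, 3L and 3R for the most copies of CGATA in that stretch. Only stretches free of exons of coding genes were considered, with ties taken in order of symbol. Since they were chosen for their copies and are longer, their counts cannot be set against those of the bound genes.
Gr9a, chrX:10061427-10061626: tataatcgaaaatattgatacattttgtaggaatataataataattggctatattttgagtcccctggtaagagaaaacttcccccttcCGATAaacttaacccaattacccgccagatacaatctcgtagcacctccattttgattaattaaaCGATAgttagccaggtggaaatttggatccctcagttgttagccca
Ir11a, chrX:12377756-12377955: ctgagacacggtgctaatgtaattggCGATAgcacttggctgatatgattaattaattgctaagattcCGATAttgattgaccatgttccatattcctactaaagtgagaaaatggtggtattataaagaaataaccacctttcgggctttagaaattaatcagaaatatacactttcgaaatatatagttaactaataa
Ir85a, chr3R:8794484-8794683: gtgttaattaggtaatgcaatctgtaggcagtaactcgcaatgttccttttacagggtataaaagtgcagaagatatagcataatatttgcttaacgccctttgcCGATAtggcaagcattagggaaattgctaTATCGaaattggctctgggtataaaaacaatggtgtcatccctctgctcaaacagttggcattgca

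Each of these 3 stretches held 2 copies, and the nearest IDR summits were 20912 bp from Gr9a, 85412 bp from Ir11a and 6802 bp from Ir85a. A match to the string is a description of the letters and not a binding site.

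The 7 bound genes made up 3.89% of the chemoreceptor genes (95% Wilson interval 1.9 to 7.81), against 44.2% of the 13765 other coding genes, and 43.7% of all coding genes were bound by the same rule. Among the families, no Or gene was bound, Gr genes were bound at 3 of 60 (5%, interval 1.71 to 13.7) and Ir genes at 4 of 60 (6.67%, interval 2.62 to 15.9). A count of 0 among 60 Or genes allows a share of up to 5%, so the 3 families were not distinguishable by these counts. The intervals and limits cover counting error only, and they treat genes as independent although neighbours can share a summit. The depth of the libraries is unknown, since no read totals were given.

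The count was as low in each replicate when it was reduced to its own strongest 6070 summits. In replicates 1, 2 and 3, 6, 5 and 7 chemoreceptor genes were bound, where the shares over all coding genes were 42.9%, 39.5% and 42.2%. As percentages these were 3.33%, 2.78% and 3.89% of chemoreceptor genes, against 43.4%, 40% and 42.7% of the other coding genes. No Or gene was bound in any replicate, Gr genes were bound at 2, 1 and 3, and Ir genes at 4 in every replicate. The mean share was 3.33% ± 0.556 for chemoreceptor genes and 42% ± 1.79 for other coding genes (SD, n = 3 each). The difference of chemoreceptor minus other genes was -40.1, -37.2 and -38.8 percentage points, lower in 3 of 3 replicates, and far larger than its spread of 1.42 points (SD, n = 3). An exact two-sided sign-flip permutation test over the 3 replicates gave p = 0.25, which is the smallest p that 3 replicates allow.

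**Figure D1:**
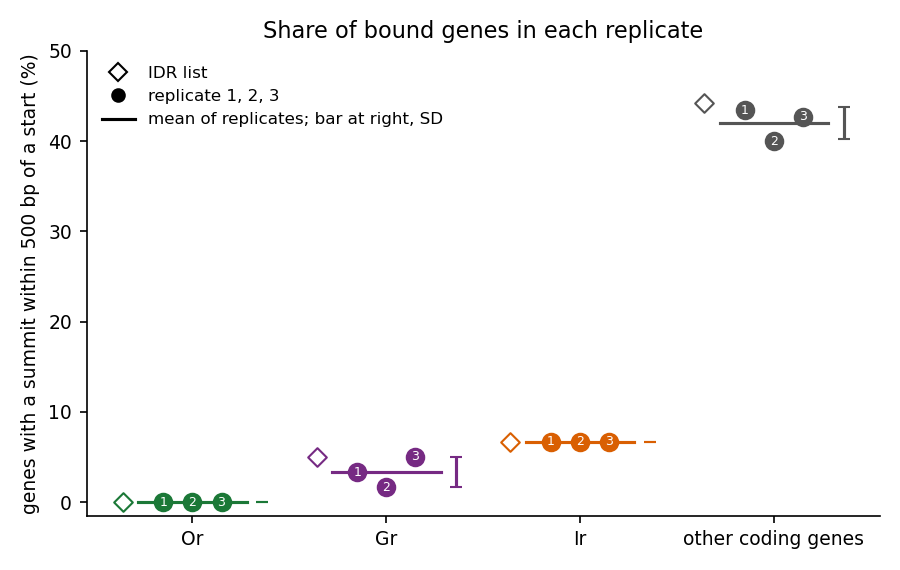
Percentage of genes with a summit within 500 bp of a start (vertical axis), by receptor family and for the other coding genes (horizontal axis); diamonds show the IDR list, numbered points the strongest 6070 summits of each replicate, lines the replicate mean and bars its SD (n = 3). Each receptor family lies at or below 6.67% in each list, while the other coding genes lie between 40% and 44.2%.

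Among the olfactory and conserved Ir genes, Ir76a and Ir31a were bound. Ir76a (FBgn0260874, 3L, 19799278 to 19803427, dm6), a receptor of amine-sensing antennal neurons, has 3 annotated starts, and the start at 19801330 lay 29 bp from a summit at 19801301 with a signal of 998. The signal is the authors' own value for a peak, on a scale that is not stated, and ranks peaks within a list only. The start of CG14102 lay on the other side of that summit at 10 bp, and only 39 bp separated the starts. The summit ranked 2332 of 6070 in the IDR list, and regions holding it ranked 2493, 2542 and 2404 in replicates 1, 2 and 3. A weaker summit in the same region (19801502, signal 161) lay in a coding exon of Ir76a, 84 bp from a start of that gene. These were the only IDR summits inside the annotated body of a chemoreceptor gene, so 1 of 180 bodies held a summit (0.556%), against 13.5% of the bodies of other coding genes. The bodies were not of equal length, with means of 2683 bp for chemoreceptor genes and 6955 bp for other coding genes. Per length, with a summit counted in each gene that held it, there were 4.14 summits per Mb in the bodies of chemoreceptor genes (2 summits), against 25.1 per Mb in those of other coding genes.

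Ir31a (FBgn0051718, 2L, 10405565 to 10408197), an antennal receptor gene, lay beside a region with 2 summits. The summit at 10405444 (signal 763) lay 121 bp upstream of Ir31a and 241 bp from the common start of LSm-4, which encodes a protein of the spliceosomal LSm ring, and CG17768. The other, at 10405218, was stronger (signal 2147) and lay 15 bp from the LSm-4 and CG17768 start and 347 bp from Ir31a. In the separate replicates the summit nearest to Ir31a stood 121, 135 and 97 bp from its start. The region ranked 1826, 1595 and 1561 in replicates 1, 2 and 3, by its strongest summits, which stood 203, 228 and 191 bp from 10405444. In the IDR list the summit at 10405444 ranked 2644 and the stronger one 1611.

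Among the remaining Ir genes, Ir60b and Ir60e on 2R were bound at separate summits, while Ir60d, which lies between them, was unbound at 4075 bp. Ir60b (FBgn0259185, 24515685 to 24517458), a receptor of pharyngeal taste neurons, lay 337 bp from a summit at 24515348, and Letm1, the gene of a mitochondrial inner membrane protein, started 28 bp from it. That summit had a signal of 384 and replicate ranks of 3764, 4335 and 4760. Ir60e (FBgn0035019, 24529554 to 24531272) lay 292 bp from a summit at 24531564, which had the highest signal among the nearest summits of the 7 genes (2055) and stood 30 bp from the start of CG13585. Its replicate ranks were 1829, 1716 and 1592. Of the 17 antennal and conserved Ir genes 2 were bound, and of the other 43 Ir genes 2 were bound, a split chosen after the values were seen, beside 4 of all 60 Ir genes.

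Among the Gr genes, a carbon dioxide receptor, a sugar receptor and Gr97a were bound. Gr63a (FBgn0035468, 3L, 3894999 to 3896603), a subunit of the carbon dioxide receptor, lay 245 bp from a summit at 3896848 with a signal of 433, while Lamtor4, a gene of the lysosomal Ragulator complex, started 52 bp from it. The replicate ranks were 3656, 4410 and 4006. Its partner Gr21a was unbound, with the nearest summit 34694 bp away at Saf6. Gr61a (FBgn0035167, 3L, 841451 to 843701), a sugar receptor gene, lay 36 bp from a summit at 841415 with a signal of 223, and the start of JMJD5 lay 55 bp from it. That region was among the strongest 6070 in replicates 1 and 3 (ranks 5145 and 5703) but ranked 6249 in replicate 2, where the nearest summit of the strongest 6070 was 3699 bp from Gr61a. Gr97a (FBgn0041224, 3R, 26965124 to 26966485) lay 444 bp from a summit at 26966929 that stood 1 bp from the start of CG5521. Its signal of 140 was close to the lowest of the IDR list (139), and its ranks in replicates 1, 2 and 3 were 6230, 8034 and 6058, so only replicate 3 held it.

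**Figure D2:**
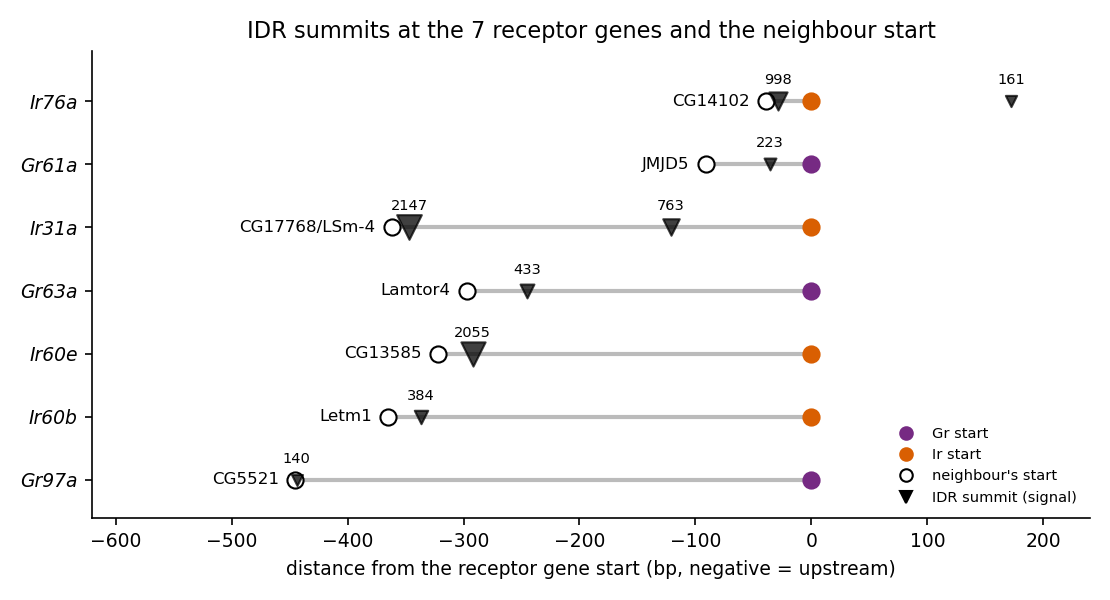
Position in bp relative to the start of each bound receptor gene (horizontal axis, negative is upstream), with filled circles for the receptor start, open circles for the neighbour's start and triangles for IDR summits, sized and numbered by the authors' signal. All summits but the weaker one of Ir76a lie between both starts, and from Gr63a down to Gr97a each lies closer to the neighbour's start.

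The bound receptor genes divided by which start was nearer. The nearest summit was closer to the receptor's own start at Gr61a and Ir31a, 2 of 7 genes (28.6%). Of the 6085 other bound coding genes, 74.9% had their own start nearest or tied. That share includes genes with no other coding start within 500 bp of the summit, which count by default, so the 2 shares are not alike. All 7 receptor genes shared their nearest summit with another coding start within 500 bp, against 58.8% of the other bound genes. The median distance from the summit to the start was 245 bp for the 7 chemoreceptor genes and 67 bp for the other bound genes. The median signal was 433 for the chemoreceptor genes, with a range of 140 to 2055, and 976 for the other bound genes. In the strongest regions of all 3 replicates 5 of the 7 genes were found, the exceptions being Gr61a and Gr97a, and all 7 were found in all 3 whole replicate lists. The same counts were not made for the other bound genes, so whether this support is usual cannot be told.

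The threshold of 500 bp fell between Gr97a at 444 bp inside it and Gr5a at 515 bp outside it. Gr5a (FBgn0003747), the trehalose receptor gene, shared its upstream side with Tre1, the gene of a G protein-coupled receptor, whose start was 125 bp from the summit (signal 156). In replicates 1, 2 and 3 the nearest summit to Gr5a among the strongest was 2559, 2529 and 552 bp away. Or67b (FBgn0036019) followed at 859 bp, at a summit with a signal of 442 that stood 25 bp from the start of Cyp40, a cyclophilin gene, and at 881, 837 and 859 bp in the replicates. These were the only receptor genes with the nearest summit between 500 and 1000 bp, and Or67b was the Or gene closest to any summit.

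In the IDR list, bound chemoreceptor genes were found only where another coding gene started in the opposite direction within 1000 bp. Such a divergent start was present at 26 receptor genes, of which 7 were bound (26.9%), against 77% of the other genes of that kind (76.8% of all coding genes of that kind). Of the 145 receptor genes with no other coding start within 1000 bp, none was bound, which allows a share of up to 2.07%, against 25.2% of such other genes (24.8% of all coding genes of that kind). None was bound of 9 receptor genes with a close start in another arrangement, against 26.3% of other genes, where 9 genes allow a share of up to 33.3%. With a close start of any kind, 7 of 35 receptor genes were bound (20%), against 69.1% of other genes (68.9% of all coding genes of that kind). Close starts were less common at receptor genes, at 35 of 180 (19.4%), against 43.2% of other coding genes. By family, a close start stood at 6 Or genes (10%), 18 Gr genes (30%) and 11 Ir genes (18.3%).

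These genes were also divided by the neighbour's own binding and by the distance to it. Of 23 receptor genes with a close start of a gene that is no receptor, 12 had a bound neighbour and 11 had none, and the 7 bound receptor genes were all among the 12. The starts of those 7 were 39 to 445 bp from the neighbour's start, and those of the other 5 were 459 to 978 bp away. Those 5 were Gr94a beside p53, Or67b beside Cyp40, Gr5a beside Tre1, Gr59a beside CG43659 and Or71a beside Plp. At Gr94a the summit stood 19 bp from the p53 start and 1835 bp from the receptor, since p53 has several starts and the closest of them to Gr94a, at 459 bp, was not the one with the summit. A summit within 500 bp of a neighbour's start can reach the receptor window only when both starts are close, so the gaps follow in part from the rule. At all 7 the same summit called the receptor and the neighbour bound, so their place among the 12 follows from the rule too. With any bound coding gene starting within 1000 bp, 58.3% of the 12 receptor genes were bound, against 91.8% of other genes.

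Receptor genes that had only each other as close neighbours were all unbound. There were 12 of these (Gr64b to Gr64e, Gr10a, Or10a, Gr58a, Gr58b, Gr59e, Gr59f, Ir7f and Ir7g), and a count of 0 among 12 allows a share of up to 25%. Only 20 other coding genes had receptor genes as their only close neighbours, and 9 of these were bound (45%). Gr64d and Gr64e, Gr64b and Gr64c, and Gr10a and Or10a each have a common annotated start, and the nearest summits were 6619 to 8245 bp from the Gr64 starts and 27770 bp from that of Gr10a and Or10a. In replicate 1 a strongest summit stood 5953 bp from the start of Gr10a and Or10a, while the nearest in replicates 2 and 3 were 27576 and 27567 bp away. Gr59e and Gr59f, which start 131 bp apart in opposite directions, had their nearest summit 1655 and 1524 bp away at AIMP3.

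**Figure D3:**
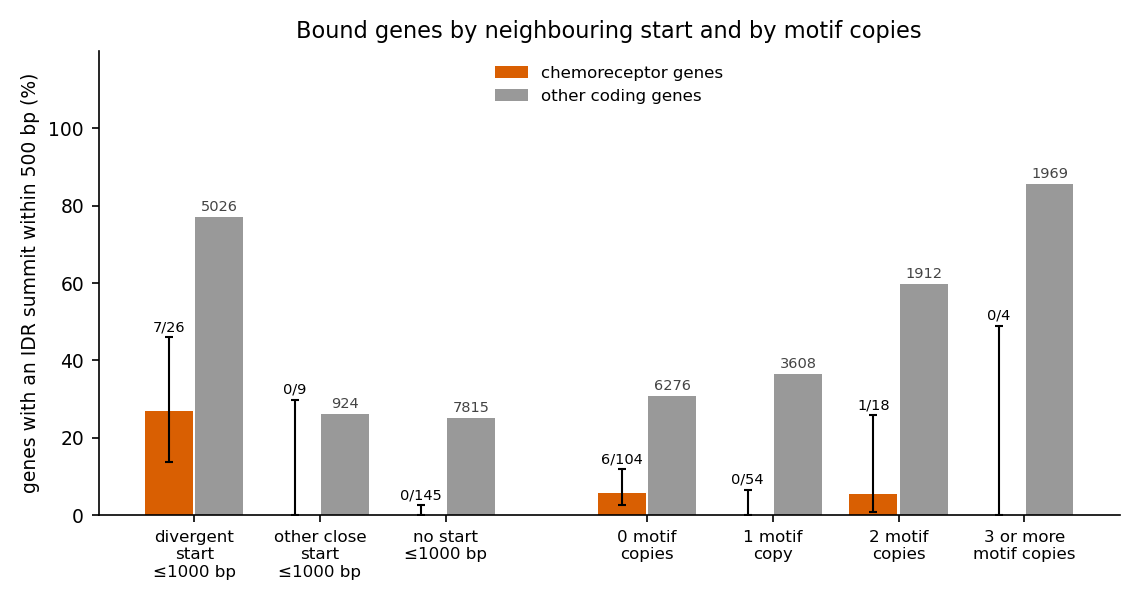
Percentage of genes bound in the IDR list (vertical axis) for chemoreceptor genes (left bar of each pair, 95% Wilson interval, bound and total genes above it) and other coding genes (right bar, total genes above it). The classes are the nearest coding start within 1000 bp, at left, and the copies of CGATA within 200 bp of the outermost start, at right. Receptor genes are bound at 26.9% beside a divergent start and at none of the 145 without a close start, and they lie below the other genes in each class.

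CGATA stood within 200 bp of the outermost start of 76 receptor genes (42.2%), against 54.4% of other coding genes and 54.2% of all coding genes. Copies on both strands were counted, so that a TATCGATA, which reads the same on both strands, counted as 2. The share was 48.3% for Or, 31.7% for Gr and 46.7% for Ir genes. TATCGATA, the element of the factor Dref, was found at 1 receptor gene, Gr68a (0.556%), against 9.24% of other coding genes.

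Few receptor genes with the string were bound. Of the 76 with at least 1 copy, Gr63a alone was bound (1.32%), against 55.4% of other genes with a copy (54.9% of all coding genes of that kind). Gr63a had 2 copies within 200 bp of its start but none within 100 bp of its summit. Of 19 receptor genes with at least 2 copies and no other coding start within 1000 bp, none was bound, which allows a share of up to 15.8%, against 53.3% of such other genes. Of the 104 without a copy, 6 were bound (5.77%), against 30.8% of other genes. Ir76a counted among these, since its outermost start is not the one beside the summit. Around the 9 IDR summits inside the windows of receptor genes, 3 had a copy within 100 bp (33.3%), namely the stronger ones at Ir76a and Ir31a and that at Ir60e, against 58.3% of all 6070 summits.

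The 173 unbound receptor genes lay at a median of 15751 bp from the nearest IDR summit, with quartiles of 6462 and 32654 bp. The median over the 7680 other unbound coding genes was 11084 bp. Over 10000 bp were found for 62.4% of the unbound receptor genes, against 52.8% of other unbound genes. By family the median was 20552 bp for Or, 13170 bp for Gr and 14600 bp for Ir genes. In replicates 1, 2 and 3 the medians were 15604, 16580 and 16400 bp for receptor genes, against 11232, 12311 and 11516 bp for other genes, and the groups did not overlap. The replicate means were 16195 ± 519 bp for receptor genes and 11686 ± 559 bp for other genes (SD, n = 3 each). Single genes varied more, and for 26 of the 173 the distances in the IDR list and the 3 replicates spanned more than 1.5-fold. For the families the replicate means were 22222 ± 3073 bp (Or), 14229 ± 544 bp (Gr) and 14761 ± 304 bp (Ir). Gr and Ir did not differ beyond this spread, while the Or medians of 19420, 21739 and 25508 bp lay above all of theirs. Each SD here is over replicate lists of the same genes and does not measure variation between genes. Across unbound genes in the IDR list the quartiles overlapped, at 8584 and 46756 bp (Or), 4587 and 27770 bp (Gr), and 5918 and 30679 bp (Ir). A family difference was not tested.

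**Figure D4:**
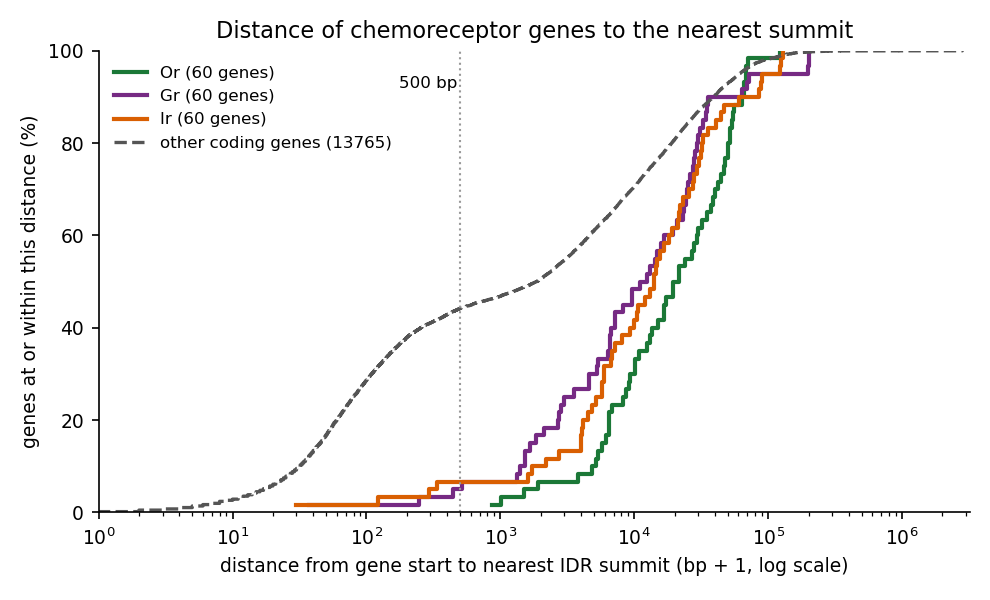
Cumulative percentage of genes (vertical axis) by distance from the closest start to the nearest IDR summit in bp plus 1 (horizontal axis, log scale), for the 60 Or, 60 Gr and 60 Ir genes and the 13765 other coding genes (dashed). The dotted line marks 500 bp, where the other coding genes have reached 44.2% and no Or gene has appeared; the Or curve lies to the right of the Gr and Ir curves over most of its course.

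The co-receptors, which most neurons of their class share, were all without a summit at the start. Orco (FBgn0037324) lay 16597 bp from the nearest IDR summit, at CG1172, and 16597, 16405 and 16400 bp from the nearest strongest summit in replicates 1, 2 and 3. Ir25a (FBgn0031634), which takes part in smell, taste and temperature sensing, lay 2753 bp from a summit at tank (signal 5661), and 2735, 2754 and 2761 bp in the replicates. Ir8a (FBgn0052704), the subunit used with acid-sensing receptors, lay 3975 bp from a summit at CG12121, and 4178, 3942 and 4167 bp in the replicates. Ir76b (FBgn0036937) lay 1715 bp from a summit whose nearest start was that of CG14187, and 1717, 1718 and 1714 bp in the replicates. The distances of each co-receptor varied little between libraries, and none had another coding start within 1000 bp. Of all coding genes without such a start, 24.8% were bound.

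Among the sugar receptors, Gr61a was the bound one of 9. Gr43a, the fructose receptor gene, lay 2830 bp from a summit at Glo1 (signal 390). The Gr64a to Gr64f run on 3L (4026769 to 4037575, 10807 bp) held no IDR summit. Gr64a, Gr64b and Gr64c had their nearest summit on the Mul1 side, at 5327, 7163 and 7163 bp, and Gr64d, Gr64e and Gr64f on the CG11593 side, at 8245, 6619 and 4587 bp. Of 5 broadly used bitter receptors, Gr66a, Gr32a, Gr33a, Gr39a and Gr89a, none was bound, beside 3 of all 60 Gr genes and 43.7% of all coding genes. Gr66a, needed for the response to caffeine, lay 2119 bp from a summit at BI-1. Gr28b, which has roles in warmth and light sensing, lay 29204 bp from a summit whose nearest start, that of Ziz, was itself 4856 bp away. In replicates 1, 2 and 3 the nearest strongest summit to Gr28b was 19479, 29625 and 29621 bp away.

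The genes farthest from any summit lay in runs of receptors or among other unbound genes. Gr36a, Gr36b and Gr36c on 2L were 202279, 200125 and 198559 bp from the nearest IDR summit, at Lrch. Ir94h, Ir94g and Ir94f on 3R were 128805, 125167 and 123169 bp from one at RpS3. Among Or genes, Or35a lay 123425 bp from a summit at CycE, Or98a 70850 bp from one at mRpS22 and Or83c 68591 bp from one at Rm62. Among these 9 genes, the replicate distance that departed most from the IDR list was that of Or35a in replicate 2, at 124513 bp.

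Receptor genes next to each other often had the same nearest summit. The 173 unbound genes had 115 distinct nearest summits, among which 101 (87.8%) lay within 500 bp of a coding start, against 85.9% of all IDR summits. For 151 of the 173 (87.3%) another coding gene started between the receptor and that summit. The 6 genes Gr22a to Gr22f had the same nearest summit, at CG17650, as did Ir7b to Ir7g, at Acat1. In all, 27 runs of 2 or more receptor genes with no other coding start between them held 78 of the 180 genes, and no IDR summit stood inside any of the 27. A single bound gene, Ir60b, belonged to such a run, and its summit lay outside it. Both flanking genes were bound at 2 runs, 1 of them at 10 and neither at 15, where 43.7% of all coding genes were bound. The absence of summits inside follows in part from the rule, since a run holds no other coding start. Most IDR summits lay within 500 bp of a coding start, and runs of other genes were not counted.

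Over the whole list of summits, 6 of 6070 had a receptor start as the nearest coding start. Those at Gr61a, Ir76a and Ir31a lay within 500 bp of it, while those nearest to Gr89a, Ir47a and Or22b were 1403, 1608 and 6487 bp away. At Gr89a the summit (signal 154) was among the strongest in replicate 1 at 1433 bp, but the nearest in replicates 2 and 3 were 14534 and 14722 bp away. At Ir47a a strongest summit stood at 1624, 1597 and 1646 bp in replicates 1, 2 and 3.

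Coding genes around the receptors were bound more often than the receptors themselves. Of the 250 coding genes that came next to a receptor gene by start, receptors skipped, 78 were bound (31.2%). That share was below the 43.7% of all coding genes. Of other coding genes with a start within 10000 bp of a receptor start, 43.7% of 366 were bound, against 44.1% of the 13319 genes farther away. Within 50000 bp the share was 43%, against 44.2% farther away. By arm, bound receptor genes numbered 0 of 25 on X, 1 of 31 on 2L, 2 of 46 on 2R, 3 of 35 on 3L and 1 of 43 on 3R. The shares over the other coding genes of these arms were 50.2% on X, 40.1% on 2L, 44.3% on 2R, 42.5% on 3L and 44.4% on 3R.

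The relaxed lists, which the authors made as input for the IDR step and which hold many weak regions, placed summits at a few more receptor genes. In the pooled relaxed list of 30000 summits, 20 of 180 receptor genes had one within 500 bp (11.1%), against 60.4% of other coding genes (59.7% of all coding genes). These were 3 Or, 8 Gr and 9 Ir genes. The 13 not called from the IDR list had signals of 15.6 to 90.9. These fall below the lowest IDR signal of 139 by construction, since the IDR list is the strongest part of the pooled list. Gr5a had the highest, with a summit at 314 bp (signal 90.9, rank 7248) between it and Tre1, and it was found in all 3 replicates. Gr66a was the other gene found in all 3, at a summit of 23.8 in a coding exon of BI-1. Ir25a had one at 120 bp (signal 34.1) and a relaxed summit in replicates 1 and 2, and Ir8a one at 45 bp (signal 17.3) that no replicate had. A relaxed summit in all 3 replicates was found for 9 receptor genes (5%), against 50.7% of other coding genes, and in none for 145 (80.6%), against 30.9%.

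Other gene lists, of sensory genes, related glutamate receptors and transcription factors, had low counts as well, beside the 43.7% of all coding genes. Odorant binding proteins, which carry odorants in the fluid around sensory neurons, were bound at 2 of 52 genes, Obp93a and Obp47b, at 476 and 495 bp from summits at Ice2 and CG7741. The CheA and CheB genes, known from taste hairs, were bound at 1 of 20, CheB42c, whose own start was the nearest at 70 bp (signal 319). The ppk genes of degenerin channels were bound at 1 of 30, rpk, which lay 303 bp from a summit at Dlip2 (signal 4727). None was bound among 2 sensory neuron membrane protein genes, 13 other ionotropic glutamate receptor genes, 17 genes of transcription factors of chemosensory neurons and 7 Rhodopsin genes. The counts were the same in each replicate, and the 4 bound genes all had another coding start within 1000 bp. The window set the total of these lists, which was 1 of 141 at 250 bp (39.4% of all coding genes) and 13 of 141 at 1000 bp (46.3%).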

How the data were processed

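BEAF-32-GFP binding was measured in 3 libraries of 1 group, numbered as in the labels. The authors deposited peak lists in narrowPeak layout. Per the file headers, relaxed lists came from each replicate and from the pooled alignments, each with a control, and the IDR list from these. Aligner, peak caller and thresholds were not stated. The signal values were deposited by the authors on an unstated scale and used for ranking within a list. The −log10 q-value, also deposited by the authors, took 1 value over the IDR list and was not used for ranking. Lists in the dm3 build were not used here.

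Gene starts were those of Ensembl release 115 (BDGP6.54) on the arms of dm6. Distances ran from the nearest start of a gene to a 1-based summit. A replicate held a peak when its summit lay in that replicate's 6070 strongest regions. The named genes were every bound receptor gene with its neighbours, those within 1000 bp of a summit, the co-receptors, selected carbon dioxide, sugar and other Gr receptors, and the 3 farthest genes per family. Other named genes and the role groups were chosen after their values were seen. The members and lists were chosen with earlier results of these data known, and 6 symbols of the accessory lists were not matched. Tested on simulated data, 200 of 200 genes with a planted summit were called among 13945. Alternatives changed the window, list, starts, replicates and motif distance. The tools were matplotlib 3.10.9, scipy 1.17.1, pandas 2.3.3, numpy 2.4.6 and Python 3.11.15.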

Additional observations from a re-analysis of the deposited data

How the results depend on the processing

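Of 35 alternatives, 24 were classed as leaving their value about the same and 11 as moving it. The first class did not require an identical value. It held counts of 5, 6 and 9 bound chemoreceptor genes in place of 7. The 7 bound chemoreceptor genes became 4 with a window of 250 bp (Ir31a, Gr61a, Gr63a and Ir76a, against 39.4% of all coding genes), 3 with the summits above the median signal of the IDR list (Ir31a, Ir60e and Ir76a, against 28.5%) and 20 with the whole pooled relaxed list (against 59.7%). With a window of 1000 bp they became 9, adding Gr5a and the Or gene Or67b (against 46.3%), and with the outermost start alone 6, without Ir76a (against 42.2%). Without 1 replicate the count was 5 to 6 (against 38.9% to 41.3%). Here a gene had to be bound in both remaining replicates by their own strongest 6070 summits. The rule thus differs from the IDR call, and the shift is not due to the omission alone. Genes with the summit nearest to their own start fell to 1 with the summits above the median signal (Ir31a) and to 1 by the strongest summit in the window (Gr61a), an alternative chosen after seeing the data. The median distance of unbound receptor genes was 26920 bp from the summits above the median signal, against 15043 bp for other genes. Without 1 replicate, the mean of the medians in the remaining replicates was 16002 to 16490 bp. CGATA stood at 24.4% of receptor starts within 100 bp, against 39.6% of other coding genes, and at 75.6% within 500 bp, against 78.8%. Bound accessory genes numbered 1 with 250 bp (against 39.4% of all coding genes) and 13 with 1000 bp (against 46.3%), of 141. The cause of these shifts was not tested beyond the settings themselves. No receptor gene without a close start was bound under any of the 5 alternatives tried for that count, 3 of which were added after seeing the data. The other 2 took subsets of the same 145 genes, so their counts of 0 were fixed in advance. The whole pooled relaxed list was not tried for that count. It placed summits at some of these genes, among them Ir51b at 22 bp and Ir8a at 45 bp. No paired analysis was possible because the study has 1 group of samples, and the sign-flip test pairs 2 sets of genes within each replicate, not samples. The unknown depth limits what the absence of a summit shows.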

Other observations

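Ensembl lists 6 Ir pseudogenes that the choice of protein-coding genes left out. None was bound, and the share over all pseudogenes was not counted. The nearest summits were 4177 bp from Ir47b, 20929 bp from Ir48a, 3191 bp from Ir51a, 16834 bp from Ir56e, 2476 bp from Ir60c and 4751 bp from Ir60f.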
